A study of Rattus norvegicus with 32 samples.

Results

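Pax1 and Pax9 are paired-box transcription factor genes, and their signals were followed through 16 cultures of rat epithelial cells measured on 32 Affymetrix gene arrays, with 2 arrays per culture. They were chosen by name: every probe set annotated to Pax1 alone or to Pax9 alone was taken. That gave 2 genes of the 14511 tested, each with 1 probe set (10884688 for Pax9 and 10840555 for Pax1) of the 15316 that carry exactly 1 gene symbol, and no probe set was shared between them. Both genes are members of the same subfamily, bind DNA through the paired domain, and are active in the endoderm of the pharyngeal pouches, from which the thymus and the parathyroid glands bud. Mice that lack Pax9 form no normal thymus, teeth or palate, and loss of Pax1 gives a small thymus and vertebral defects. Outside the pouches both genes act in the sclerotome, the part of the somite that forms the vertebrae, and Pax9 also acts in the mesenchyme of tooth and palate.

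Every culture came from Sprague-Dawley rats that carry the act-EGFP transgene and so express green fluorescent protein throughout, and every culture was grown on an irradiated 3T3-J2 feeder layer, a mouse fibroblast line. The thymic epithelial cell (TEC) cultures numbered 4 before grafting, 4 after a first transplantation into skin on nude mice and 4 after a second, and of the hair follicle (HF) cultures 2 had not been grafted and 2 had been grafted once. Nude mice lack a working Foxn1 gene and T cells but have skin of their own, and the grafted cells were recovered by dissecting out follicles that fluoresced green. The series asks what thymic epithelial cells become when they are placed in skin.

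TEC before grafting were PRE16cl11_VII (embryonic day 16, E16, clonal), PRP1cl11_VII (postnatal day 1, P1, clonal), PRP4mo_bulk and PRP4mo_Cl09 (4 months, bulk and clonal). After the first transplantation they were Clone_217 and Clone_218 (E16), Clone_57 (P1) and Clone_907 (4 months, bulk), and after the second Clone_287 and Clone_347 (E16), Clone_194 (P1) and Clone_354 (4 months, bulk). The HF cultures were YR219P5_Bulk_V (bulk) and YR219P5cl7 (clonal) before grafting and YR219P5_RC (bulk) and Clone_54 (clonal) after it, all labelled P5 with no explanation. A clonal culture is the progeny of a single cell, so each stands for 1 clone. The labels do not say which grafted culture descends from which ungrafted one, nor that cultures came from separate animals, so p-values measure only the spread between these samples. No TEC culture is labelled P5, and tissue and that label cannot be told apart.

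The promoters are shown because Pax9 and Pax1 passed the test in different contrasts, though both genes differed in the same direction in each of those. No link between the promoter sequences and the signals was tested. They are the RefSeq windows from 250 bases before to 50 after each start, on build GRCr8 and the + strand (Pax9 chr6:79921551-79921850, Pax1 chr3:155245279-155245578), and capitals mark CCAAT or its reverse complement ATTGG, the box bound by the factor NF-Y.
Pax9: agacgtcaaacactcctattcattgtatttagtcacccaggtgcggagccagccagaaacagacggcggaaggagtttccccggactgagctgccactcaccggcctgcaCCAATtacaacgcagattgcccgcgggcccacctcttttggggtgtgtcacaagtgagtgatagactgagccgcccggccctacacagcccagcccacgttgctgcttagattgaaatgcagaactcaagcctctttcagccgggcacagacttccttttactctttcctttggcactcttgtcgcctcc
Pax1: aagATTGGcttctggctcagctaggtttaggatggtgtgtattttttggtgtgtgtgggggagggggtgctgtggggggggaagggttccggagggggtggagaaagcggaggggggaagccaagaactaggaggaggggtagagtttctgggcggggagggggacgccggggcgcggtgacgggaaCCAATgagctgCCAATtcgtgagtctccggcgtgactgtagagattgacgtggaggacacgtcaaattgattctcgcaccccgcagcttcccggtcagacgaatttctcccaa
The Pax9 window held 1 CCAAT, 140 bases before the start, and the Pax1 window held 3, of which 1 lay on the reverse strand. Of the 33469 promoter windows of that length in the table, 37.5% held at least 1 on either strand. TATAAA was in neither window (14.2% of all windows held it), and GGGCGG, the core letters of the GC box, was in each once (33.1%). The E-box letters CANNTG occurred at 2 places in Pax9 and at 0 in Pax1 (72.1% of windows held them). The windows had 14 CpG in Pax9 and 17 in Pax1 against a median of 7, and a GC content of 55.7% and 59.3% against a median of 51.7%. All motifs were searched on both strands, no match overlapped another, and a match describes letters only.

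Signals are log2 values, so 1 unit is a doubling. Array 1 of YR219P5_RC had a median of 5.78, above the 5.29 to 5.55 of the other arrays, and the arrays of a culture correlated at 0.989 to 0.998 across probe sets. The labelled tissue was set against its markers. Of 10 measured thymic epithelial genes (Krt5 and Ly75 were not analysed here) only Krt8, a keratin of simple epithelia, passed the test between TEC and HF before grafting, with both of its probe sets. Foxn1, the master regulator of thymic epithelial maturation, had 5.84 ± 0.16 (SD, n = 4) in TEC and 5.58 ± 0.63 (n = 2) in HF before grafting (adjusted p = 0.660). The basal keratin gene Krt14 was at 12.95 to 13.35 in TEC and 13.10 to 13.28 in HF cultures. Markers of blood, endothelial, melanocyte, nerve and muscle, and parathyroid and thyroid cells gave 0 calls between TEC and HF before grafting. With 1.55% of all probe sets passing there, 0 is near that share. In the same comparison 1 of 8 keratinocyte probe sets passed, Lgals7, lower in TEC by 5.96 (adjusted p = 0.0160). Of 10 hair follicle probe sets 1 passed, Gata3, lower in TEC by 2.06 (adjusted p = 0.0395). RMA values have no 0, and the files give no detection call. As a guide to low signal, 1271 probe sets for olfactory and vomeronasal receptors, genes with no known role in these epithelia, had a median of 3.02, a 95th percentile of 4.56 and a highest value of 6.18. All Foxn1 values (5.13 to 6.15 over the cultures) were below that highest value, so Foxn1 was not shown to lie above background in either tissue. Lgals7 in ungrafted TEC (4.86 to 5.34) was also below it, so the Lgals7 difference of 5.96 is a lower bound.

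Pax9 was higher in every TEC culture than in every HF culture. Before grafting the TEC values were 8.84 in PRE16cl11_VII, 8.65 in PRP1cl11_VII, 9.54 in PRP4mo_bulk and 9.14 in PRP4mo_Cl09. After the first transplantation they were 8.30 in Clone_217, 8.68 in Clone_218, 7.53 in Clone_57 and 8.48 in Clone_907. After the second they were 7.87 in Clone_287, 8.76 in Clone_347, 6.81 in Clone_194 and 8.82 in Clone_354. The E16 and 4-month cultures thus lay between 7.87 and 9.54, and the grafted P1 cultures Clone_57 and Clone_194 were the lowest of the TEC cultures. The HF values were 6.21 in YR219P5_Bulk_V, 6.43 in YR219P5cl7, 6.28 in YR219P5_RC and 6.43 in Clone_54. The lowest TEC culture, Clone_194, was 0.38 above the highest HF culture, Clone_54, and the other TEC cultures were farther away. Array-to-array differences of Pax9 within a culture had a median of 0.12 and reached 0.54 in YR219P5_RC, so the gap at Clone_194 was within the largest of them. Relative to the mean of the 4 HF cultures, Pax9 ranged from 9.23-fold in PRP4mo_bulk down to 2.28-fold in Clone_57 and 1.39-fold in Clone_194. No receptor probe set reached the mean Pax9 signal of the HF cultures, but all 4 lay near the highest receptor value of 6.18. Array 2 of YR219P5_RC (6.02) was below it. Pax9 was thus not clearly shown above background in HF cultures, and its folds over HF, here and below, may be lower bounds.

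**Figure D1:**
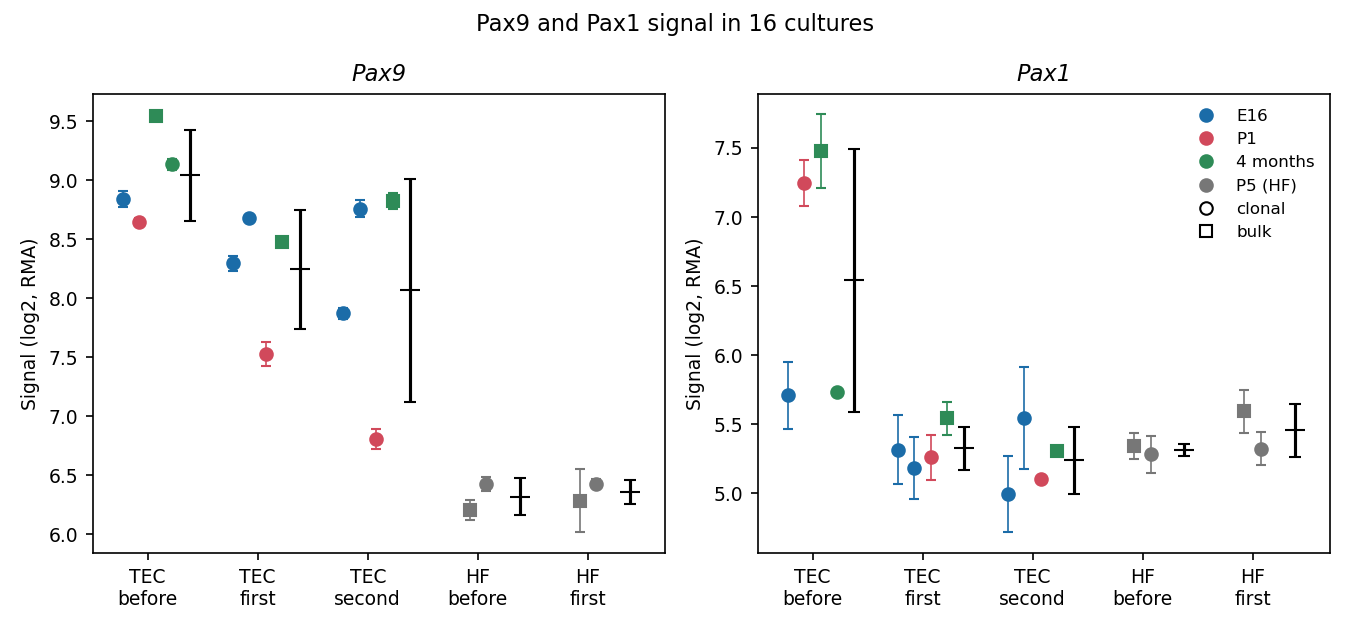
Log2 RMA signal of Pax9 (left) and Pax1 (right) by group; each marker is the mean of a culture, the thin line joins its 2 arrays, and the black bar is the group mean ± SD. The axes differ and do not start at 0. All 12 TEC cultures lie above the 4 HF cultures for Pax9, and for Pax1 PRP1cl11_VII and PRP4mo_bulk stand above 7 while the other 14 cultures lie between 4.99 and 5.73.

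The groups ordered for Pax9 as TEC before grafting (9.04 ± 0.39, SD, n = 4), TEC after the first (8.24 ± 0.50, n = 4) and the second transplantation (8.07 ± 0.94, n = 4), HF after transplantation (6.36 ± 0.10, n = 2) and HF before it (6.32 ± 0.16, n = 2). At equal transplantation count, averaging the comparisons before grafting and after the first transplantation, Pax9 was 4.95-fold higher in TEC than in HF (log2 difference 2.31 ± 0.33 SE, 95% interval 1.60 to 3.02, limma adjusted p = 0.00337, where 4.17% of the 15316 probe sets passed). An exact two-sided permutation of the tissue labels within each transplantation count gave p = 0.00444, the smallest that its 225 arrangements allow. Before grafting the log2 difference was 2.73 ± 0.47 (adjusted p = 0.0131; 1.55% passed), and without YR219P5_Bulk_V it was 2.62 with adjusted p = 0.155 (range over 26 alternatives 1.05e-06 to 0.440). After the first transplantation the difference was 1.89 ± 0.47 (95% interval 0.88 to 2.90) and that between TEC grafted a second time and grafted HF was 1.71 ± 0.47 (0.70 to 2.72). Neither passed (adjusted p = 0.168 and 0.120), where 0.0718% and 0.0457% of probe sets did. These differences between TEC and HF after grafting share their HF cultures. No pair of neighbouring groups in this order passed the test. The culture values of TEC grafted a second time and grafted HF did not overlap, and those of the other neighbours did.

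Pax1 was high in only 2 cultures. Before grafting its values were 5.71 in PRE16cl11_VII, 7.25 in PRP1cl11_VII, 7.48 in PRP4mo_bulk and 5.73 in PRP4mo_Cl09. After the first transplantation they were 5.32 in Clone_217, 5.18 in Clone_218, 5.26 in Clone_57 and 5.54 in Clone_907. After the second they were 4.99 in Clone_287, 5.55 in Clone_347, 5.10 in Clone_194 and 5.31 in Clone_354. The P1 clone and the 4-month bulk culture therefore stood apart before grafting, and the E16 clone and the 4-month clone did not. The HF values were 5.34 in YR219P5_Bulk_V, 5.28 in YR219P5cl7, 5.59 in YR219P5_RC and 5.32 in Clone_54, inside the range of the grafted TEC cultures up to Clone_347 except for YR219P5_RC. The PRP1cl11_VII and PRP4mo_bulk values were 3.64-fold and 4.27-fold above the HF mean of 5.38, and those of PRE16cl11_VII and PRP4mo_Cl09 1.25-fold and 1.27-fold. Arrays of a culture differed for Pax1 by a median of 0.31 and at most 0.74 (Clone_347), which is larger than the distance of PRE16cl11_VII and PRP4mo_Cl09 from the HF mean. Of the receptor probe sets, 12 were at or above the mean Pax1 signal of HF cultures, 14 at or above that of grafted TEC, and 0 at or above that of ungrafted TEC. Pax1 was thus not shown to lie above background in HF or grafted TEC cultures, and its folds are read as lower bounds. The values of PRE16cl11_VII and PRP4mo_Cl09 were also below the highest receptor probe set.

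The group means of Pax1 were 6.54 ± 0.95 (SD, n = 4) in TEC before grafting, 5.46 ± 0.19 (n = 2) in HF after transplantation, 5.33 ± 0.15 (n = 4) in TEC after the first transplantation, 5.31 ± 0.04 (n = 2) in HF before grafting and 5.24 ± 0.24 (n = 4) in TEC after the second. No comparison made among the 4 lower groups passed in limma: TEC after the first transplantation minus grafted HF was −0.13 (95% interval −1.02 to 0.75) and TEC grafted a second time minus grafted HF −0.22 (−1.10 to 0.67). TEC exceeded HF before grafting by 1.23 ± 0.41 (95% interval 0.34 to 2.11), which did not pass (adjusted p = 0.179). At equal transplantation count the difference was 0.55 ± 0.29 (adjusted p = 0.272; exact permutation p = 0.164). For Pax1, unlike Pax9, 4 of 12 TEC cultures were above every HF culture, and these were the 4 ungrafted ones. PRE16cl11_VII (5.71) and PRP4mo_Cl09 (5.73) exceeded YR219P5_RC (5.59) by less than the median array difference of 0.31.

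**Figure D2:**
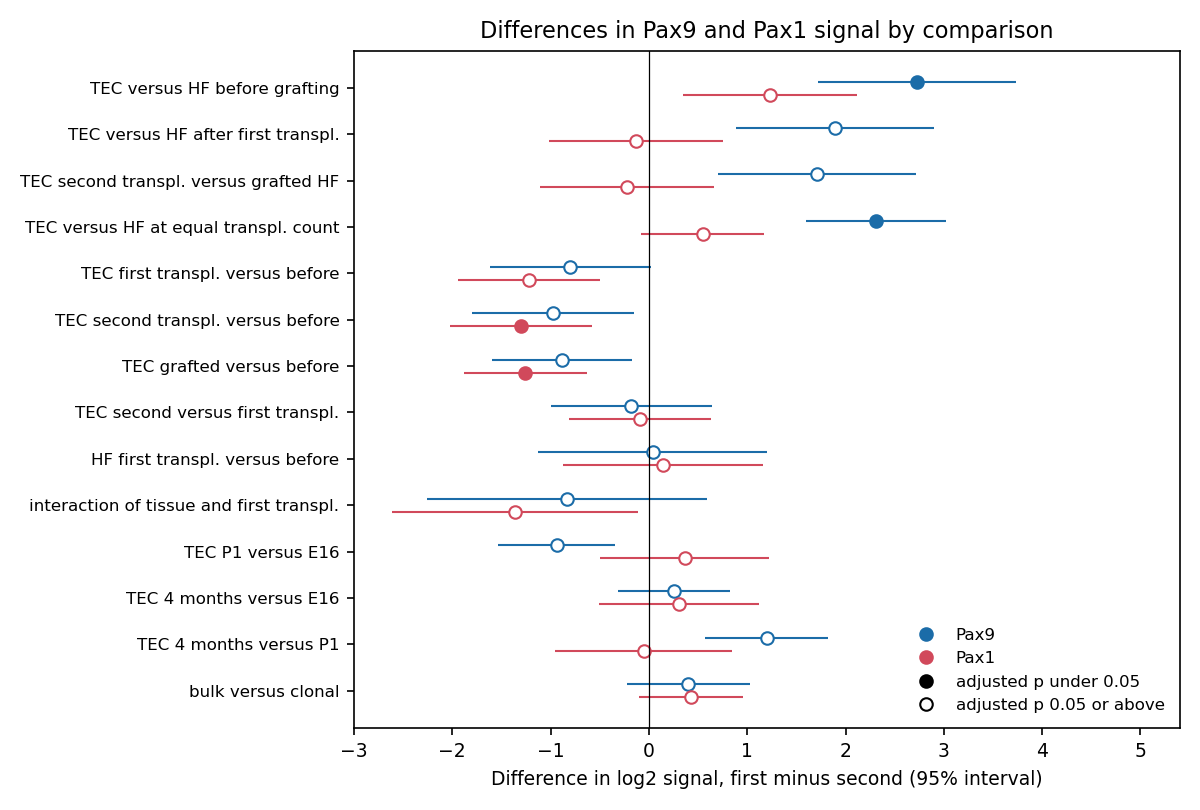
Differences in log2 signal of Pax9 (blue) and Pax1 (red) in each comparison, with 95% intervals from limma; filled markers have an adjusted p under 0.05 over 15316 probe sets. Pax9 passed in the comparisons of TEC with HF before grafting and at equal transplantation count, and Pax1 in those of TEC after the second transplantation and of all grafted TEC with ungrafted TEC.

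Transplantation of TEC went with a lower Pax1 signal. The means of all 8 grafted TEC cultures (5.28 ± 0.19, SD) were below those of all 4 ungrafted ones, by a narrow margin. Clone_347 (5.55) and PRE16cl11_VII (5.71) were closer than the median array difference of 0.31. On array 2 their order was reversed (5.92 and 5.47). The share of all probe sets that separate in this way was not computed. Between grafted and ungrafted TEC the log2 difference was −1.26 ± 0.29 (95% interval −1.88 to −0.63), at least 2.39-fold lower. Its limma adjusted p was 0.0287, where 4.83% of probe sets passed. The exact two-sided permutation of the grafting labels gave p = 0.00202, the smallest of its 495 arrangements, which rests on that narrow separation. Single cultures ended the call. Without PRP1cl11_VII it was −1.02 (adjusted p = 0.0893), without PRP4mo_bulk −0.95 (adjusted p = 0.106) and without Clone_217 −1.26 (adjusted p = 0.0540), against a range of 0.000704 to 0.219 over 27 alternatives. After the second transplantation alone the difference was −1.30 ± 0.34, at least 2.47-fold lower (adjusted p = 0.0480; 3.86% passed). That call ended on leaving out any 1 of 14 of the 16 cultures (adjusted p = 0.0524 to 0.127), PRE16cl11_VII and PRP4mo_Cl09 being the exceptions. After the first transplantation the difference was −1.22 ± 0.34 (adjusted p = 0.122; 0.516% passed). These comparisons share the ungrafted TEC cultures.

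Pax9 was also lower on average in grafted TEC (8.16 ± 0.71, SD, n = 8), but with overlap: 5 of 8 grafted cultures were below every ungrafted one, and Clone_218, Clone_347 and Clone_354 were not. The difference was −0.89 ± 0.33 (95% interval −1.60 to −0.17; adjusted p = 0.141), and an exact two-sided permutation test of that value alone gave p = 0.0364. With donor stage in the model it was −0.82 with adjusted p = 0.0485 (range over 27 alternatives 0.00785 to 0.381). After the first transplantation it was −0.80 ± 0.38 (adjusted p = 0.352) and after the second −0.98 ± 0.38 (adjusted p = 0.168), the latter −0.56 without Clone_194. The second transplantation did not differ from the first for either gene in limma: −0.18 (95% interval −1.0 to 0.64) for Pax9 and −0.09 (−0.81 to 0.63) for Pax1, where 0% of probe sets passed and 532 had an unadjusted p under 0.05.

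In HF cultures transplantation moved neither gene beyond the spread. Pax9 differed by 0.04 (95% interval −1.12 to 1.20) and Pax1 by 0.14 (−0.88 to 1.17), in a comparison of 2 with 2 cultures where limma called 0% of probe sets and 1354 had an unadjusted p under 0.05. The test of whether the first transplantation acted differently in TEC and HF gave −0.84 ± 0.66 for Pax9 (adjusted p = 0.839) and −1.36 ± 0.58 for Pax1 (adjusted p = 0.827), with 0% of probe sets called and 866 at an unadjusted p under 0.05. A response of TEC different from that of HF was therefore not shown for either gene.

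Markers of other cell types were read beside the lower Pax1 and Pax9 signals. Over 14 measured fibroblast and feeder cell genes the mean log2 level per culture was 5.67 to 6.10 in TEC before grafting. It was 5.39 to 5.61 after the first and 5.27 to 5.55 after the second transplantation. Grafted and ungrafted TEC did not overlap, by a narrow margin (5.61 against 5.67). Of the 14, Twist1, a transcription factor of mesenchyme, and S100a4, a calcium-binding protein of fibroblasts, fell by 1.04 and 1.46 (adjusted p = 0.0145 and 0.0108) in grafted TEC, and 0 rose, where 4.83% of all probe sets passed in either direction. The HF cultures, where both Pax genes were low, had 5.64 to 6.10 before and 5.62 to 5.86 after grafting on that list. Over 11 simple epithelial genes the mean level was 8.46 to 9.23 in ungrafted TEC, 7.43 to 9.27 and 7.60 to 8.89 after the first and second transplantation, and 6.44 to 7.30 in HF cultures. Of the 14 probe sets of these genes 2 fell in grafted TEC and 0 rose. Both were of Krt8 (log2 differences −1.91 and −2.10, adjusted p = 0.0371 and 0.0465). Over 8 hair follicle genes the mean level was 5.48 to 5.78 in ungrafted TEC, 5.84 to 6.39 and 5.97 to 6.45 after grafting, and 6.19 to 6.83 in HF. Grafted and ungrafted TEC did not overlap on that list either, again by a narrow margin (5.84 against 5.78). How often other sets of genes separate in this way was not computed. In grafted TEC 1 of the 10 hair follicle probe sets rose, Gata3 by 1.75 (adjusted p = 0.0101). Of 8 keratinocyte probe sets 1 rose, Lgals7 by at least 5.23 (adjusted p = 0.00368), and 0 fell on either of these lists. No marker was at 0 on this scale. The part of any of these lists in the Pax1 and Pax9 differences was not tested. In bulk RNA fewer cells of a type and less RNA per cell cannot be told apart.

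Within the TEC cultures the lowest Pax9 signals were those of grafted P1 cells. In P1 cultures Pax9 was 8.65 before grafting, 7.53 after the first and 6.81 after the second transplantation, 2.18-fold and 3.58-fold lower than before. In E16 cultures the means were 8.84, 8.49 and 8.32, and in 4-month cultures 9.34, 8.48 and 8.82. The P1 cultures thus ended nearest to the HF cultures, while the E16 and 4-month cultures stayed at least 2.90-fold above the HF mean (the lowest, Clone_287). With transplantation count in the model, P1 minus E16 was −0.94 ± 0.27 (95% interval −1.54 to −0.34; adjusted p = 0.0700), where 6.08% of probe sets passed, and without PRP1cl11_VII it was −1.21 with adjusted p = 0.0466 and without Clone_194 −0.59 with adjusted p = 0.333 (range over 25 alternatives 0.00106 to 0.333). The 4-month cultures exceeded P1 by 1.20 ± 0.28 (adjusted p = 0.111; 0.353% passed) and E16 by 0.26 ± 0.25 (adjusted p = 0.803; 0.0914% passed). These stage comparisons rest on 5 E16, 3 P1 and 4 4-month cultures.

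For Pax1 the P1 cultures went from 7.25 to 5.26 and 5.10, at least 3.97-fold and 4.42-fold lower, the 4-month cultures from a mean of 6.60 to 5.54 and 5.31, and the E16 cultures from 5.71 to 5.25 and 5.27. Stage gave P1 minus E16 of 0.36 (95% interval −0.50 to 1.22), 4 months minus E16 of 0.31 (−0.51 to 1.12) and 4 months minus P1 of −0.05 (−0.95 to 0.85), none of which passed. Single cultures moved all 3 differences: P1 minus E16 ran from 0.0030 without PRP1cl11_VII to 0.60 without Clone_194, 4 months minus E16 from −0.013 without PRE16cl11_VII to 0.56 without PRP4mo_Cl09, and 4 months minus P1 from −0.34 without PRP4mo_bulk to 0.40 without PRP1cl11_VII. Before grafting the 4-month bulk culture was at 7.48 and the 4-month clone at 5.73. Over all groups bulk minus clonal was 0.43 ± 0.25 for Pax1 and 0.40 ± 0.29 for Pax9 (adjusted p = 0.998 for both; 0.18 without PRP4mo_bulk and 0.22 without Clone_354), with 0% of probe sets called and 793 at an unadjusted p under 0.05. All grafted 4-month TEC cultures were bulk and all E16 and P1 cultures clonal, so stage and culture type overlap in part.

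**Figure D3:**
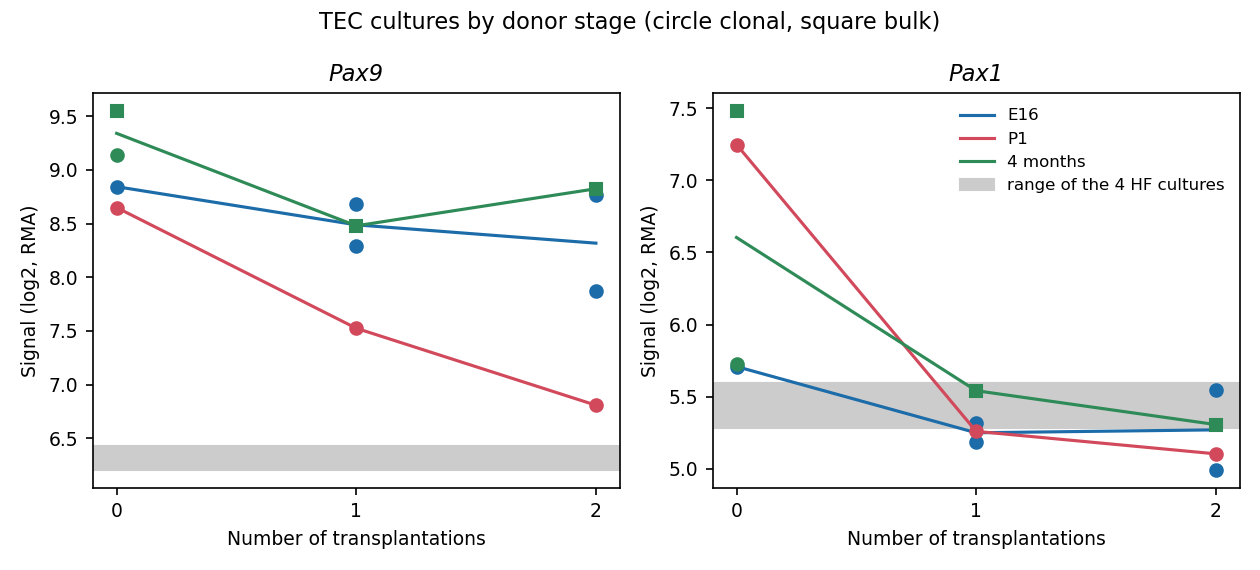
Log2 RMA signal of Pax9 (left) and Pax1 (right) in TEC cultures against the number of transplantations, coloured by donor stage; lines join stage means and do not imply descent, and the grey band is the range of the HF cultures. Pax9 in P1 cultures runs 8.65, 7.53 and 6.81, and Pax1 in all 3 stages is between 4.99 and 5.55 after grafting.

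The genes were set against each other by culture. Over the 12 TEC cultures, which share their groups and the RMA normalization, Pearson's r between them was 0.58 and Spearman's coefficient 0.73, given as a description. Without Clone_57 and Clone_194, the cultures farthest from the median of Pax9, r was 0.62 and Spearman's coefficient 0.64 (n = 10). That step kept PRP1cl11_VII and PRP4mo_bulk, the cultures highest in Pax1 (7.25 and 7.48). It therefore cannot show how far the coefficients rest on those cultures, and coefficients without them were not computed. In the other TEC cultures Pax1 was not shown to lie above background. In PRP4mo_bulk both genes were at their highest. Clone_194 had the lowest Pax9 of the TEC cultures and Clone_287 the lowest Pax1, and PRP4mo_Cl09 had the second highest Pax9 with Pax1 at 5.73.

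**Figure D4:**
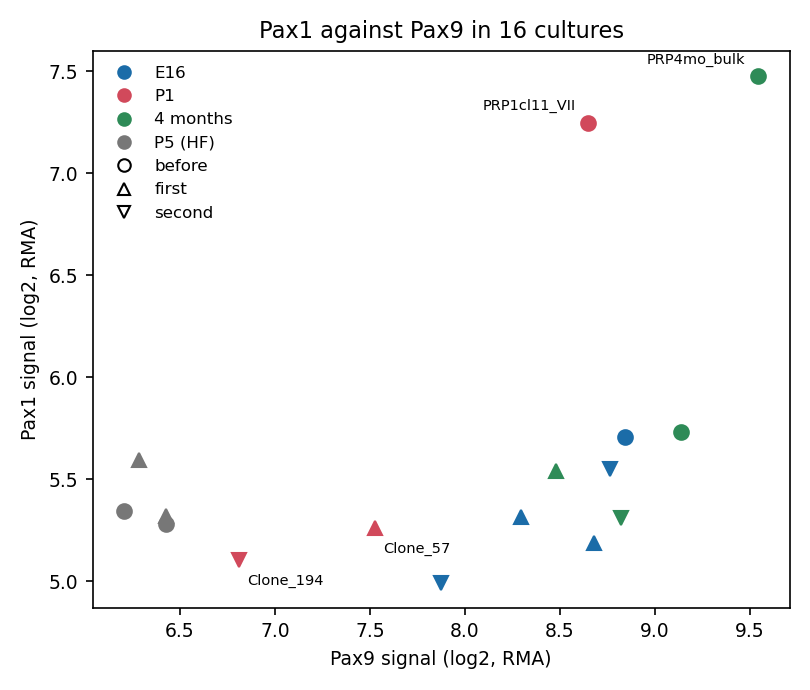
Pax1 against Pax9 log2 RMA signal in the 16 cultures, coloured by donor stage, with the marker giving the transplantation count. PRP1cl11_VII and PRP4mo_bulk are high in both genes, and Pax1 spans 4.99 to 5.73 in the remaining cultures while Pax9 spans 6.21 to 9.14.

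Of 7 other Pax genes 5 were measured (Pax5 and Pax7 were not analysed here), and 0 of Pax2, Pax3, Pax4, Pax6 and Pax8 passed in any of the 14 comparisons, where 0% to 6.08% of all probe sets did. A count of 0 of 5 is near those shares. Their differences between TEC and HF before grafting ran from −0.11 (Pax8, a thyroid and kidney factor) to 0.09 (Pax4, a factor of pancreatic islets), with a median of 0.07 against −0.01 over all probe sets. Pax6, the eye and pancreas factor, was at 3.46 to 5.29 and Pax8 at 4.35 to 4.99 over the cultures, low signals at which a change could go unseen.

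Among 15 measured transcription factor genes of the pouch, Isl1, a LIM homeodomain factor of pharyngeal endoderm, was, like Pax9, higher in every TEC culture than in every HF culture. It was 6.76 to 7.69 in TEC before grafting, 6.43 to 6.84 after the first, 6.06 to 7.04 after the second transplantation, and 4.17 to 4.65 in HF cultures. At equal transplantation count it was 5.55-fold higher in TEC (log2 2.47 ± 0.21, adjusted p = 0.000120). Its HF signals lie within the range of the receptor probe sets, so that fold is a lower bound. Gata3, a factor of pouch, parathyroid and skin, ran the other way: it was 4.18-fold lower in TEC than HF before grafting (adjusted p = 0.0395) and rose 3.37-fold in grafted TEC (7.51 ± 0.62 to 9.20 ± 0.73 and 9.33 ± 0.47, adjusted p = 0.0101). Msx2, a homeobox factor of skin appendages, and Nkx2-5, the heart and pharynx factor, were 2.53-fold and 1.31-fold lower in TEC at equal transplantation count (adjusted p = 0.0155 and 0.0331). Their TEC signals (3.87 to 5.53 and 5.66 to 6.10) lay within the range of the receptor probe sets. Their HF signals (5.32 to 6.19 and 6.17 to 6.43) lay within that range or near its highest value of 6.18. Neither gene was therefore clearly shown above background in either tissue, and the size of these folds is uncertain. Of the 15, 1 was higher and 1 lower before grafting (1.55% of all probe sets passed there), 1 rose in grafted TEC (4.83%), which is near that share, and 1 was higher and 2 lower at equal count (4.17%), with median differences of −0.0022, 0.06 and −0.06. Foxn1, and Gcm2, the parathyroid factor, did not pass in these comparisons. Foxn1 was at 5.13 to 6.15 and Gcm2 at 4.19 to 4.80 in all cultures. Both lay within the range of the receptor probe sets, where a change could go unseen. Hoxa3, Eya1 and Tbx1, which act with the Pax genes in the pouch, were not analysed here.

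Of 25 measured genes for signals and receptors around the pouch, Wnt4, a Wnt ligand, resembled Pax9 in direction. It was 9.22 ± 0.17 in TEC and 7.87 ± 0.08 in HF before grafting (2.56-fold higher, adjusted p = 0.0153) and was 1.56-fold lower in grafted than in ungrafted TEC (adjusted p = 0.0455). Rarg, a retinoic acid receptor gene, rose 1.80-fold in grafted TEC (adjusted p = 0.0486). At equal transplantation count the fibroblast growth factor receptor gene Fgfr1, the ligand gene Shh and its target Gli1 were 1.98-fold, 1.33-fold and 1.28-fold lower in TEC (adjusted p = 0.0246, 0.0152 and 0.0429). The signals of Shh (4.49 to 5.38) and Gli1 (4.86 to 5.79) were low in every culture, within the range of the receptor probe sets. Of the 25, 1 was higher and 0 lower before grafting (1.55% of all probe sets passed there), 1 was higher and 1 lower in grafted TEC (4.83%), and 1 was higher and 3 lower at equal count (4.17%). The first and the second of these counts are near their shares. The list had medians of −0.12, −0.03 and −0.12 against −0.01, 0.01 and −0.06 over all probe sets.

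Among 12 measured partners of Pax9 in tooth and palate, Fst, which encodes the activin inhibitor follistatin, was 10.52 ± 0.60 in TEC before grafting and 8.39 ± 0.69 and 8.04 ± 0.48 after the first and second transplantation, 4.93-fold lower in grafted TEC (adjusted p = 0.00368). Osr2, a zinc finger factor of tooth and palate mesenchyme, rose 1.81-fold in grafted TEC (adjusted p = 0.0108). Its signals in ungrafted TEC (5.05 to 5.74) lay within the range of the receptor probe sets, and those in grafted TEC (5.96 to 6.82) did in part. Osr2 was thus not shown above background before grafting. Tfap2b, a factor of neural crest and skin, was at least 6.19-fold lower in TEC at equal transplantation count (adjusted p = 0.0262), a lower bound because ungrafted TEC (4.10 to 4.53) lay within the range of the receptor probe sets. Of the 12, 0 passed before grafting (1.55% of all probe sets passed there), 1 rose and 1 fell in grafted TEC (4.83%), and 1 was lower at equal count (4.17%), with medians of −0.03, 0.09 and −0.06. Of 10 measured partners and targets of the genes in the sclerotome, among them Meox1, 0 passed in any of the 14 comparisons, where 0% to 6.08% of all probe sets did, so a count of 0 is near the share of all probe sets. The medians were −0.07, −0.05 and −0.11 before grafting, in grafted TEC and at equal count.

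**Figure D5:**
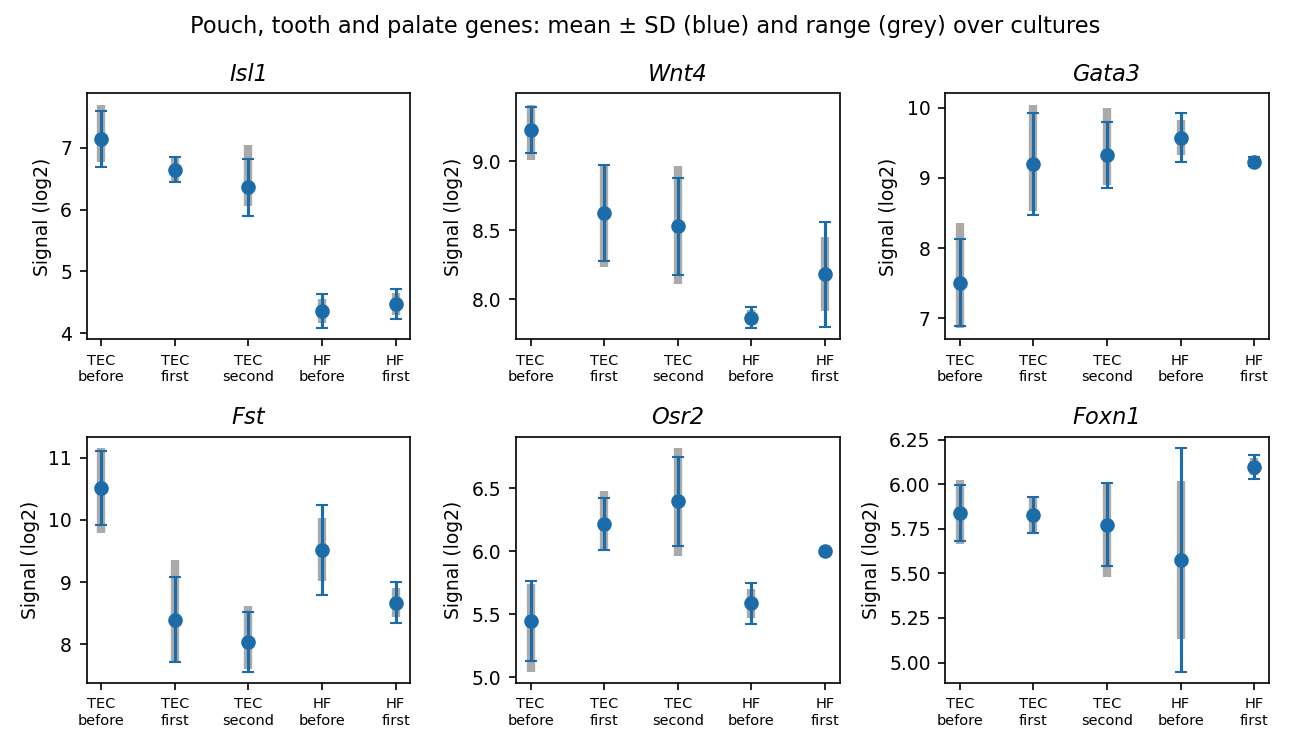
Log2 RMA signal by group for 6 pouch, tooth and palate genes; points and blue bars are the mean ± SD over cultures and grey bars the range, with axes that differ and do not start at 0. Isl1 separates TEC from HF cultures, Fst falls and Gata3 and Osr2 rise in grafted TEC, and Foxn1 stays at 5.13 to 6.15, below the highest receptor probe set.

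The probe sets most like Pax9 over the 16 cultures, among 1530 with an SD of at least 0.5, were Tinagl1 (r = 0.97), both probe sets of Krt8 (0.96 each), Sgms2 (0.95) and Arhgef6 (0.94). Tinagl1 encodes a matricellular protein and Sgms2 a sphingomyelin synthase. Krt8 was at 11.27 in ungrafted TEC, 9.36 in grafted TEC and 6.81 in HF cultures in 1 probe set, and 11.24, 9.13 and 5.48 in the other. The most opposed were the clock gene Bmal2 (r = −0.95), Tfap2b (−0.94), Vamp5 (−0.93), Rassf4 (−0.93) and C1qtnf12 (−0.93). Within the 12 TEC cultures alone the closest were Gpr137b (0.92), Tinagl1 (0.92), Arhgef6 (0.92), Zfp275 (0.91) and Csf3 (0.89), so Tinagl1 and Arhgef6 stood in both lists.

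For Pax1 the closest over the 16 cultures were Ifi44l (r = 0.90), Lox (0.90), Rbpms (0.87), Slc47a1 (0.85) and Pcbp3 (0.84). Lox encodes the collagen cross-linking enzyme lysyl oxidase, and its mean was 6.93 in ungrafted TEC, 5.30 in grafted TEC and 5.12 in HF cultures. The most opposed were Prnp (−0.80), Gata3 (−0.79), Slc2a5 (−0.77), Slc44a2 (−0.76) and Rassf6 (−0.76). Within TEC cultures the closest were Rgs4 (0.96), Ptprn (0.95), Pdgfc (0.94), Ctnnd2 (0.93) and Ifi44l (0.92), and Rgs4, a regulator of G protein signalling, went from 7.92 to 5.0 in grafted TEC. These coefficients rest on few cultures, and the points share groups. For Pax1 only PRP1cl11_VII and PRP4mo_bulk stood clearly above the other cultures. None of the closest genes was shared by Pax1 and Pax9.

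The genes next to Pax9 and Pax1 on their chromosomes were looked at after the values of both were known. On chromosome 6, of 8 neighbours of Pax9 (4 on each side) 7 were measured, and Nkx2-1, the lung and thyroid factor, Nkx2-8, Foxa1, Brms1l, Mbip, Slc25a21 and Prps1l3 gave 0 calls between TEC and HF before grafting or at equal count, or between grafted and ungrafted TEC. With 1.55%, 4.17% and 4.83% of all probe sets passing, 0 of 7 is near those shares. Slc25a21, the nearest measured on the far side, differed by 0.26 ± 0.08 at equal transplantation count (adjusted p = 0.0827) beside 2.31 for Pax9. On chromosome 3, 4 of 8 neighbours of Pax1 were measured. Foxa2, an endoderm factor, Sstr4 and Cd93 gave no call, and Thbd, which encodes thrombomodulin, rose by 1.18 ± 0.30 in grafted TEC (adjusted p = 0.0398) where Pax1 fell.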

How the data were processed

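RNA of 16 rat cultures was measured on 32 arrays. Per the submitters' processing notes the authors made the deposited log2 probe set signals by RMA (Affymetrix Expression Console); software versions and annotation release are not given in the sources used here. RMA compresses low signals, so folds there are understated. Of 29215 probe sets, 15316 carry 1 symbol (317 several, 13582 none listed) and were tested without a filter on level. Both arrays of a culture were averaged, and limma 3.58.1 in R 4.3.3 (lmFit, eBayes) was fitted to the 16 culture means in 5 groups that share 1 spread; stage was fitted on 12 TEC cultures with transplantation count. P-values were adjusted with Benjamini-Hochberg over all 15316 probe sets within a comparison, with a threshold of 0.05. Errors are SE for differences and SD for levels, and the number of cultures limits precision. Exact permutation tests covered single values. The fit was tested on simulated data. The members, gene lists and tests were chosen with earlier results of these data known. Named genes are the listed members past the threshold, up to 4 per list and comparison, and the 5 closest and most opposed probe sets; outside this rule, the other Pax genes, Foxn1, Gcm2, Meox1 and Krt14 are named as background, and the chromosomal neighbours were chosen after values were seen. Alternatives covered centring, blocks, stage, clonal cultures, dim probe sets below 4, the prior, single arrays and each culture left out; leaving out array 1 of YR219P5_RC was added after seeing the data.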

Additional observations from a re-analysis of the deposited data

How the results depend on the processing

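Of 730 values recomputed for Pax1 and Pax9 under the alternatives, 670 kept their direction and their side of the threshold, 28 kept their direction and lost the threshold, 18 gained it and 14, all of differences that had not passed, changed sign. Few cultures per group and the low signal of Pax1, not shown to lie above background outside PRP1cl11_VII and PRP4mo_bulk, limit what could be seen. Pax9 in HF cultures was also not clearly shown above background. The causes of the changes below were not tested except where fewer cultures entered.

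The higher Pax9 in TEC than in HF held at equal transplantation count in 25 of 26 alternatives and before grafting in 24 of 26. With clonal cultures alone, which are fewer, the values were 2.09 (adjusted p = 0.192) and 2.45 (adjusted p = 0.440), and with a culture left out the difference before grafting was 2.56 to 2.86. The lower Pax1 in grafted TEC held in 22 of 27, with −0.99 in clonal cultures alone, −1.30 with array 2 of each culture alone and −1.54 to −0.95 with a culture left out. The lower Pax1 after the second transplantation lost the threshold in 20 of 27: −1.30 with each array centred on its median, in a fit of only the cultures compared and with an intensity trend and robust prior, −1.23 with donor stage in the model, −1.01 in clonal cultures, −1.33 with array 2 alone and −1.58 to −0.99 with a culture left out.

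Arrays as the unit, with culture as a random block, gave the same differences with smaller p-values, with or without the array number as a replicate block. Under the replicate block the values that passed there and not in the culture means were 1.23 for Pax1 in TEC versus HF before grafting, −1.22 for Pax1 after the first transplantation, −0.98 and −0.89 for Pax9 after the second and in all grafted TEC, 1.89 and 1.71 for Pax9 in TEC versus HF after the first transplantation and in second-graft TEC versus grafted HF, and −0.94 and 1.20 for Pax9 in P1 versus E16 and 4 months versus P1. The array number marks arrays of 1 culture and pairs no cultures. Donor stage in the model gave −0.82 for Pax9 in grafted TEC (adjusted p = 0.0485), and Pax9 in P1 versus E16 was −1.21 to −0.59 with a culture left out.

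Signs changed for Pax9 in HF after grafting (−0.059 with centred arrays, −0.13 with array 2 alone, −0.10 without array 1 of YR219P5_RC, −0.071 to 0.15 with a culture left out) and for Pax9 in the second versus the first transplantation (−0.43 to 0.24 with a culture left out). They changed for Pax1 in TEC versus HF after the first transplantation (0.0039 with centred arrays, −0.27 to 0.0042 with a culture left out). In 4 months versus E16, clonal cultures gave −0.086 for Pax9 and −0.57 for Pax1, and leaving out a culture gave −0.013 to 0.56 for Pax1. In 4 months versus P1, Pax1 was 0.043 with array 2 alone and −0.34 to 0.40 with a culture left out.

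The number of probe sets past the threshold moved by over 1.5 times in many alternatives: from 4 to 977 around 238 for TEC versus HF before grafting, 74 to 2333 around 740 for grafted TEC, 35 to 2070 around 591 after the second transplantation, 0 to 1183 around 79 after the first, 15 to 1530 around 639 at equal transplantation count and 4 to 2571 around 931 for P1 versus E16. For the others it was 0 to 249 around 11, 0 to 721 around 7, 1 to 488 around 14 and 0 to 625 around 54 for TEC versus HF after the first transplantation, second-graft TEC versus grafted HF, 4 months versus E16 and 4 months versus P1, and up to 136, 260, 75 and 60 around 0 for the second versus first transplantation, HF after grafting, the interaction and bulk versus clonal.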
